A study of Rattus norvegicus with 16 samples.

Results

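The genes of the respiratory chain and ATP synthase were examined in the left ventricle (LV) of rats with volume overload (VO). VO was made by an aortocaval fistula (ACF), a shunt between the abdominal aorta and the inferior vena cava. The genes were taken by name: symbols that begin with Nduf, Uqcr or Atp5, symbols of the Cox4 to Cox8 families, Sdha to Sdhd, and Cyc1 and Cycs, where a probe set carried 1 symbol. This gave 87 of the 14218 genes measured. Of these, 77 were subunits or isoforms of subunits, 6 were assembly factors of complex I and 4 were other genes with such names. They fall into complex I with 40 genes, complex II with 4, complex III with 8, complex IV with 19 and complex V with 16. Cycs, which encodes cytochrome c, was only on probe sets shared with related genes and is not among the 87.

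The 16 arrays were of 16 male adult Sprague-Dawley rats, 1 array per rat, with 4 rats in each of 4 groups: control, ACF 8 weeks, ACF 16 weeks and ACF 24 weeks. The labels name no other treatment, genetic change or drug. The study's methods describe 8 weeks as compensated hypertrophy (CH) and 16 weeks as heart failure (HF). The titles call the control rats baseline and the design text calls them sham-operated, so that age, surgery and ACF cannot be told apart if the controls were killed at baseline. The same 4 control rats served all 3 ACF times. Sham rats of 1 age could match at most 1 of these times, and at the others age and ACF could not be told apart. In the ACF 24 weeks group, the descriptions of 3 of the 4 rats give a time 1 to 3 weeks later than the titles. The design text speaks of 3 biological replicates, where 4 arrays per group were deposited. None of the 16 arrays was of a rat with a corrected ACF. Nothing in the labels ties a replicate number to a litter or a day. The p-values set a difference between groups against the spread between the rats within groups.

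The respiratory chain passes electrons from NADH (complex I) and succinate (complex II) through ubiquinone to complex III, through cytochrome c to complex IV and on to oxygen. Complexes I, III and IV pump protons across the inner mitochondrial membrane, and ATP synthase (complex V) uses the gradient to make ATP. The subunits are encoded partly by mitochondrial DNA and mostly by nuclear genes; all genes described here are nuclear. Cardiac muscle is rich in mitochondria and makes nearly all of its ATP in this way. LV tissue was measured as a whole, and fewer cells of a type and less RNA per cell cannot be told apart.

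Values are log2 signals, with each array centred on its own median, and are given relative to the mean of the 4 control arrays (log2 difference). A gene was said to rise or fall where the adjusted p of limma, over all 14218 genes, was under 0.05. The medians of the deposited arrays lay at 2 levels. The 9 arrays at the higher level (6.13 to 6.17) were all 4 control arrays, 3 at 8 weeks and 2 at 16 weeks, and the 7 arrays at the lower level (5.92 to 5.96) were the others, with all 4 at 24 weeks. Array level and ACF therefore cannot be told apart in the comparison of 24 weeks with control. Ventricular cardiomyocyte markers were in place, with 0 of 15 rising or falling at 16 weeks, a median log2 difference of 0.017 and array medians of -0.098 to 0.057. Macrophage markers rose in 11 of 11 at 16 weeks, in 2 of 11 at 8 weeks and in 4 of 11 at 24 weeks, and the median of the list in an array was -0.15 to 0.15 in control, 0.68 to 1.04 at 8 weeks, 0.83 to 1.85 at 16 weeks and 0.36 to 1.03 at 24 weeks. Fibroblast and matrix markers rose in 0 of 10 at 8 weeks, in 6 of 10 at 16 weeks and in 1 of 10 at 24 weeks. Their array medians were -0.15 to 0.30 in control and 0.23 to 0.81 at 8 weeks. They were 0.37 to 0.66 at 16 weeks and 0.085 to 0.57 at 24 weeks. Of the endothelial markers, 1 of 7 rose at 16 weeks, and none of the smooth muscle (7), lymphocyte (7), red cell (3) or brown fat (5) markers rose or fell then. The part of these cells in the results was not tested.

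At 16 weeks, 6 of the 87 genes fell and 0 rose. Of the 6, 5 belong to complex I, and the other encodes an isoform of a complex IV subunit. The 6 are 6.90% of the genes, against 3.26% of all genes that fell and 5.83% that rose in the same comparison. The log2 difference was below 0 for 74 of the 87 genes (85.1%), with a median of -0.12, against 50.4% and a median of -0.0022 for all genes. An unadjusted p under 0.05 with a lower value was found for 28 of the 87 genes (32.2%) and for 10.3% of all genes. All 4 arrays lay below the 4 control arrays for 20 of the 87 genes (23.0%), against 6.32% of all genes, and all 4 lay above them for 1, Cox6b2, against 10.1%.

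At 8 weeks, 0 of the 87 genes rose and 0 fell by limma, against 0.0492% and 0.00703% of all genes. The lowest adjusted p was 0.70 (Cox8a). An unadjusted p under 0.05 was found for 0 of the 87 by limma, against 3.23% of all genes lower and 4.59% higher. By the methods' t-test it was found for 4, all lower (4.60%), against 4.22% of all genes lower. The median log2 difference was -0.024, with 57 genes below 0. All 4 arrays lay below the control arrays for 2 genes, Atp5me and Cox8a, against 2.73% of all genes, and for 0 genes above them, against 3.43%. At 24 weeks, 0 rose and 0 fell, against 0.612% and 0.295% of all genes. Without centring of the arrays, 26 of the 87 fell at 24 weeks, where 11.8% of all genes rose or fell. By limma on centred arrays, an unadjusted p under 0.05 was found for 7 lower genes (8.05%, against 7.42% of all genes) and 1 higher gene (1.15%, against 8.80%). By the methods' t-test it was found for 9 lower genes (10.3%, against 7.03%) and 3 higher genes (3.45%, against 7.59%). The median at 24 weeks was -0.080, with 71 genes below 0, and -0.29 without centring. All 4 arrays lay below the control arrays for 4 genes, against 4.46%, and above them for 2, Cox6b2 and Cox7b2, against 4.82%. Without centring, the log2 difference at 24 weeks was 0.0093 for Cox6b2 and -0.038 for Cox7b2. Their mean deposited signals were 4.46 and 2.94, and that of Cox7b2 was the lowest of the 87.

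**Figure D1:**
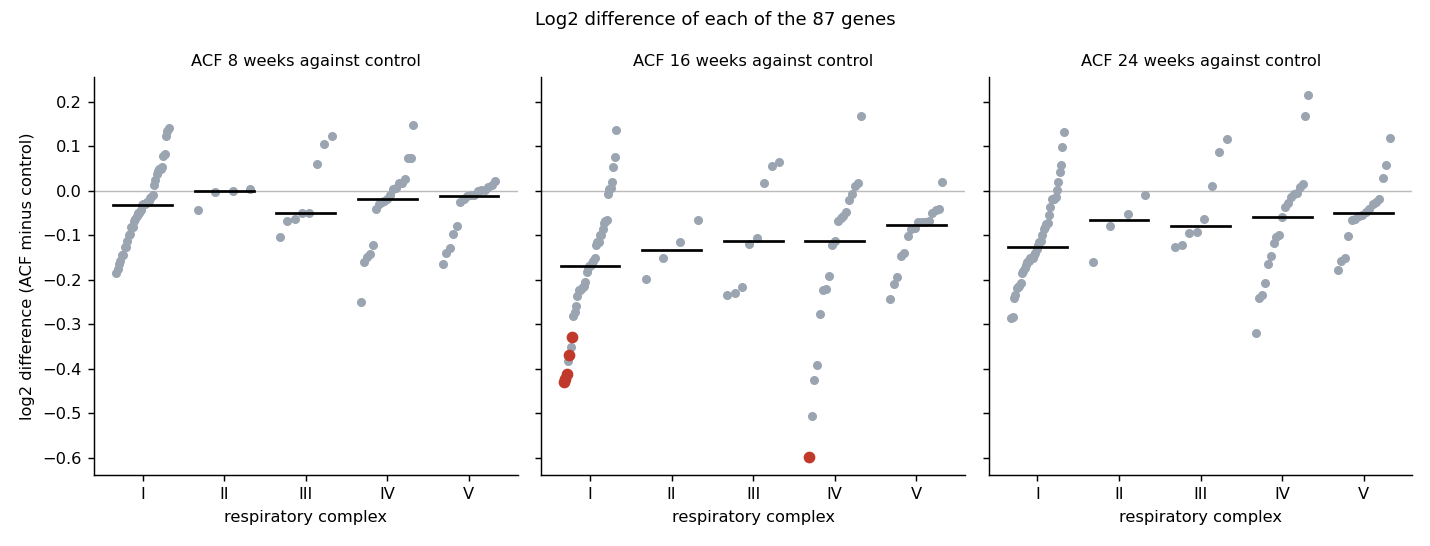
Log2 difference from control of each of the 87 genes (points) by respiratory complex, at 8, 16 and 24 weeks after ACF, with the median of each complex as a bar. The 6 genes that passed an adjusted p of 0.05 are red, all at 16 weeks; the median of complex I at 16 weeks is -0.17 and that of complex V -0.077.

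Among the ACF groups themselves, by limma, 0 of the 87 and 0 of all genes (0% of them) passed an adjusted p of 0.05 between 16 and 8 weeks, between 24 and 16 weeks or between 24 and 8 weeks. With an unadjusted p under 0.05, 488 of all genes were lower and 747 higher at 16 than at 8 weeks, 780 lower and 499 higher at 24 than at 16 weeks, and 384 lower and 393 higher at 24 than at 8 weeks. Of the 87, 7 were lower at 16 than at 8 weeks (Ndufa2, Ndufaf3, Ndufb3, Ndufs3, Ndufs8, Ndufv3 and Cox4i2), 1 was higher at 24 than at 16 weeks (Ndufaf3) and 1 was higher at 24 than at 8 weeks (Atp5if1). The values were below 0 for 81 of the 87 genes at 16 against 8 weeks (median -0.11), and above 0 for 71 at 24 against 16 weeks (median 0.048). These comparisons share the arrays at 16 weeks. A fall at 16 weeks and none at 8 or 24 weeks is therefore not shown to differ between the times.

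The median over all 87 genes in each array shows the spread between rats. In control it was 0.061, 0.067, -0.035 and -0.063. At 8 weeks it was -0.010, -0.13, 0.034 and -0.025. At 16 weeks it was -0.19, -0.16, -0.089 and -0.047, so that replicate 4 lay within the control range and the other 3 arrays below it. At 24 weeks it was 0.026, -0.18, -0.073 and -0.075, with replicate 1 among the control arrays. The 2 arrays at 16 weeks of the higher level were the lower 2 of that group, and were also the 2 with the highest median of the macrophage markers (1.85 and 1.42, against 0.83 and 1.05); the part of either in the result was not tested. Set against the control arrays, which are all of the higher level, those 2 arrays alone gave a median log2 difference of -0.17 for the 87 genes.

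**Figure D2:**
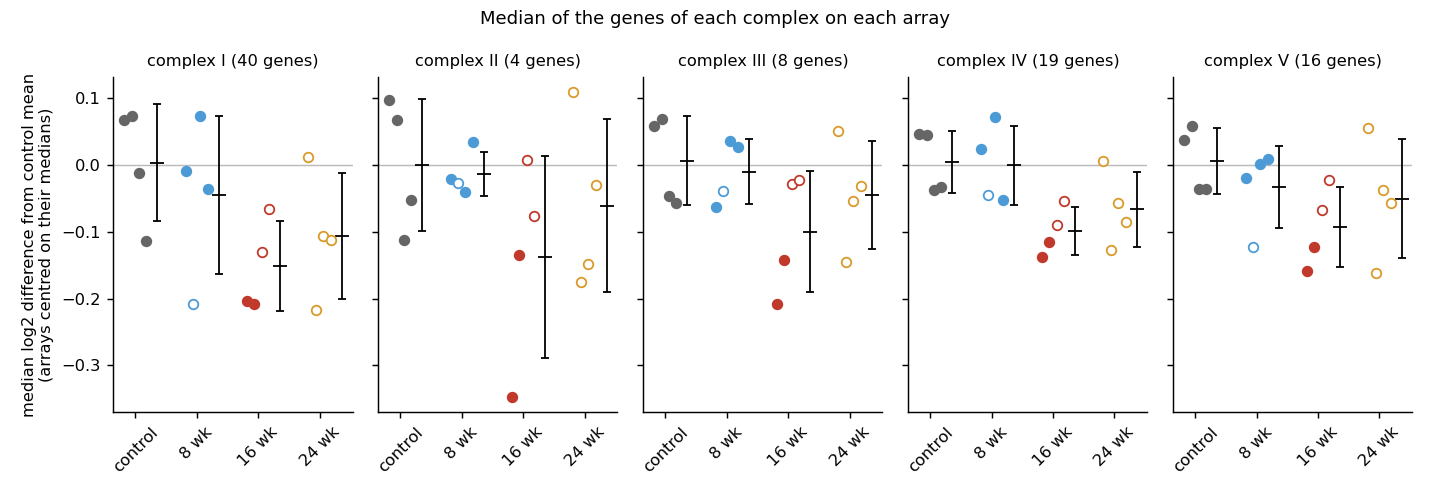
Median log2 difference from the control mean over the genes of each complex, for each of the 16 arrays (points; filled for arrays at the higher level of the array median, open for the lower), with the mean and SD of 4 arrays beside them. At 16 weeks all 4 arrays lie below 0 in each complex but complex II, with means of -0.15 for complex I and -0.099 for complex IV. Control arrays also lie below 0, and the arrays at 16 weeks overlap with control in each complex but complex IV.

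Complex I, the NADH dehydrogenase, had 5 of 40 genes that fell at 16 weeks and a median log2 difference of -0.17, with 34 of 40 below 0. The median of its arrays was -0.15 ± 0.067 (SD, n = 4) at 16 weeks and 0.0038 ± 0.087 in control, and the groups overlapped, as the highest array at 16 weeks was at -0.066 and the lowest control at -0.11. Its genes can be split by role. The 6 measured core subunits, which carry the flavin and the iron-sulfur clusters or hold them in place, were all below 0, with a median of -0.27, and 2 fell. Their median in an array was -0.61, -0.29, -0.17 and -0.063 at 16 weeks, against -0.092 to 0.12 in control. Replicate 1 was thus far the lowest, and replicate 4 lay within the control range. The 28 accessory subunits, which surround the core, had a median of -0.16, and 2 fell. The 6 assembly factors, which build the complex and leave it, had a median of -0.083, with 3 below 0, and 1 fell.

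Ndufs8 and Ndufs3 are the core subunits that fell. Ndufs8 encodes a subunit that holds iron-sulfur clusters on the path to ubiquinone. Its control arrays were at 0.19, -0.038, -0.035 and -0.12, and its arrays at 16 weeks at -0.68, -0.47, -0.30 and -0.27, all below control. The log2 difference was -0.43 ± 0.11 (SE, n = 4), a level 0.742 times that of control, with adjusted p = 0.0253 by limma. Its arrays were at -0.072, -0.34, -0.039 and -0.13 at 8 weeks and at -0.038, -0.44, -0.24 and -0.25 at 24 weeks. Replicate 2 was the lowest of the group at both times.

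Ndufs3 encodes a subunit of the arm that faces the matrix. Its control arrays were at 0.16, 0.042, -0.024 and -0.17, and its arrays at 16 weeks at -0.72, -0.39, -0.35 and -0.23, again without overlap. The log2 difference was -0.42 ± 0.12 (SE, n = 4), 0.746 times control, with adjusted p = 0.0359 by limma. At 24 weeks the arrays were at -0.12, -0.59, -0.22 and -0.20, a log2 difference of -0.28 (adjusted p = 0.249). The other core subunits had log2 differences at 16 weeks of -0.27 (Ndufs7), -0.26 (Ndufv1, which holds the flavin), -0.15 (Ndufv2) and -0.071 (Ndufs1), and none of them passed the test. All 6 were also below 0 at 8 weeks (median -0.11) and at 24 weeks (median -0.15), comparisons that share the control arrays.

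Ndufaf3, an assembly factor of complex I, was at 0.12, 0.023, 0.033 and -0.18 in control and at -0.60, -0.51, -0.31 and -0.22 at 16 weeks. All 4 arrays lay below control, with a log2 difference of -0.41 ± 0.11 (SE, n = 4), 0.752 times control and adjusted p = 0.0217 by limma. Its arrays were at -0.23, -0.28, -0.085 and -0.11 at 8 weeks, where it had the smallest p of complex I (log2 difference -0.18, adjusted p = 0.756), and at 0.015, -0.33, -0.22 and -0.19 at 24 weeks. Of the other assembly factors, Ndufaf8 was at -0.38 at 16 weeks (adjusted p = 0.0533), Ndufaf5 at -0.17, and Ndufaf1, Ndufaf7 and Ndufaf4 lay between 0.0040 and 0.076 (without centring, between -0.11 and -0.042). The assembly factors thus held both low values and values near control.

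Ndufb7 and Ndufa13, accessory subunits, also fell; both are named outside the rule, after their values were seen. Ndufb7 was at 0.042, -0.00085, 0.13 and -0.17 in control and at -0.59, -0.46, -0.29 and -0.13 at 16 weeks. The highest array at 16 weeks lay above the lowest control array, and the log2 difference was -0.37 ± 0.11 (SE, n = 4; adjusted p = 0.0376 by limma). Ndufa13, also known as Grim19, was at -0.042, 0.15, -0.11 and 0.0014 in control and at -0.55, -0.24, -0.29 and -0.24 at 16 weeks. All 4 arrays lay below control, and the log2 difference was -0.33 ± 0.099 (SE, n = 4; adjusted p = 0.0463 by limma). Ndufa13 was the least stable of the 6 calls, and held in 4 of 16 omissions of an array, against 10 to 12 for the other 5. At the other end of complex I, Ndufa12 had the highest value at 16 weeks, 0.14 (adjusted p = 0.344). Ndufv3, of the NADH-binding module, was at -0.35 at 16 weeks (adjusted p = 0.0751) and had the smallest p of complex I at 24 weeks, with a log2 difference of -0.29 (adjusted p = 0.240).

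**Figure D3:**
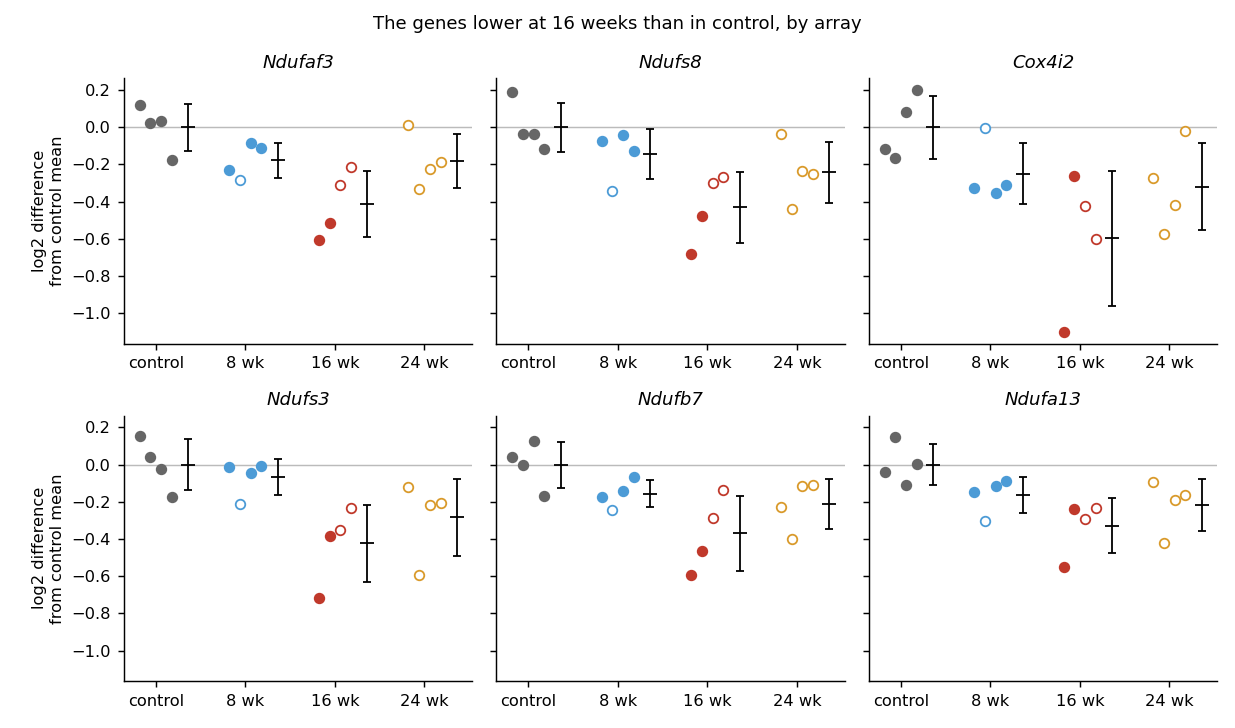
Log2 difference from the control mean of the 6 genes that fell at 16 weeks, for each array (points; filled for arrays at the higher level, open for the lower), with the mean and SD of 4 arrays. Replicate 1 at 16 weeks is the lowest array of the study for each of the 6, from -0.55 for Ndufa13 to -1.10 for Cox4i2.

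These calls rest on few arrays. The count of 6 was 0 without replicate 1 at 16 weeks, 0 without control replicate 1, 0 without control replicate 3, 1 without replicate 2 at 16 weeks and 1 without control replicate 2. Over all genes, 646 to 1570 passed in the 16 omissions, against 1292 with all arrays. The direction of the 6 genes was the same in all 16 omissions, with the log2 difference of Ndufs8 between -0.49 and -0.35 and that of Cox4i2 between -0.71 and -0.43. After Benjamini-Hochberg adjustment the methods' t-test gave a count of 1, Ndufb11 (log2 difference -0.22), which is none of the 6. Of all genes, 1.55% passed by that test. On the 8 arrays of the comparison alone, limma gave 1, Ndufs8, where 7.64% of all genes passed. On the arrays of the higher level alone the count was 13, with all 6 among them, where 13% of all genes passed, against 9.09% with all arrays. That setting keeps only replicates 1 and 2 at 16 weeks, the lower 2 of that group in the median of the 87 genes.

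The promoters of the 4 subunits of complex I that fell are shown because the genes of these complexes are known targets of shared nuclear factors. The windows run from 250 bases before to 50 bases after the annotated start (RefSeq, GRCr8), and the 120 bases before the start are printed, with motifs in capitals. Motifs were searched on both strands: CCGGAAG of ETS factors such as GABP, GCGCATGCG of NRF1, AAGGTCA of ERR-type nuclear receptors, and CCAAT of NF-Y; CCGGAAG and AAGGTCA can share bases. Of the 87 genes, 78 had a promoter in the table, and the first listed start was used for each gene.
Ndufs8, chr1:210573699-210573818, minus strand: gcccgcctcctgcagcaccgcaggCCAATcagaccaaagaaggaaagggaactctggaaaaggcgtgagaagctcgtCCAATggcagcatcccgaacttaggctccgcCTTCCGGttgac
Ndufs3, chr3:97339655-97339774, minus strand: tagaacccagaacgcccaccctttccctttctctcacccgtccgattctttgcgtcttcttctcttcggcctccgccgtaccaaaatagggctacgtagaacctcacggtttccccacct
Ndufa13, chr16:19560406-19560525, plus strand: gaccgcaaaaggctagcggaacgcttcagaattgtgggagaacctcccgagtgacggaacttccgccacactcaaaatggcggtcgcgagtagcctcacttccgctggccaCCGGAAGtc
Ndufb7, chr19:41477292-41477411, minus strand: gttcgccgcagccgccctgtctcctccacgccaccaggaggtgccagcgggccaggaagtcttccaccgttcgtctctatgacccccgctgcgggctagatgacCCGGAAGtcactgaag

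Ndufs8 held CCAAT at 2 places and CTTCCGG, which is CCGGAAG read on the other strand, at 1 place in the printed bases. Ndufa13 and Ndufb7 held CCGGAAG at 1 place each, close to the start, and the printed bases of Ndufs3 held none of the motifs. Over the whole windows, CCGGAAG was in 22 of 78 promoters of these genes (28.2%) and in 9.22% of all 27457 promoters. GCGCATGCG was in 7 of 78 (8.97%) against 1.66%, and AAGGTCA in 11 of 78 (14.1%) against 4.37%. CCAAT was in 34.6% against 37.7%. By complex, CCGGAAG was in 9 of 38 promoters of complex I and in 5 of 15 of complex V, and AAGGTCA was in 3 of 38 of complex I and in 5 of 15 of complex V. A match is a run of letters and no measure of binding.

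Complex II, succinate dehydrogenase, which also belongs to the TCA cycle, had 0 of 4 genes called at any time. At 16 weeks its log2 differences were -0.20 ± 0.11 (SE; Sdhc), -0.15 (Sdhd), -0.12 (Sdhb) and -0.066 (Sdha). The lowest of these, Sdhc, encodes a membrane anchor. It was at 0.10, 0.056, -0.10 and -0.053 in control and at -0.45, -0.12, -0.044 and -0.18 at 16 weeks, so that the groups overlapped. The adjusted p of Sdhc was 0.277 by limma, with a 95% interval from -0.42 to 0.029. The smallest p at 8 weeks was that of Sdhb, the iron-sulfur subunit, at -0.043, and at 24 weeks that of Sdha, the flavin subunit, at -0.16 (adjusted p = 0.473).

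Complex III, which passes electrons from ubiquinol to cytochrome c, also had 0 of 8 genes called. At 16 weeks, 5 were below 0: Uqcrc1 at -0.23, Uqcr11 at -0.23, Cyc1, the cytochrome c1 subunit, at -0.22, the Rieske protein gene Uqcrfs1 at -0.12 and Uqcrq at -0.11. The other 3 were Uqcrh at 0.064, Uqcr10 at 0.056 and Uqcrc2 at 0.018, and without centring of the arrays these lay at -0.053, -0.062 and -0.10. Uqcr11 had the smallest p, with a log2 difference of -0.23 ± 0.084 (SE, n = 4; adjusted p = 0.0952 by limma). Its control arrays were at 0.023, 0.048, -0.0058 and -0.066, and its arrays at 16 weeks at -0.38, -0.18, -0.25 and -0.11, all below control. A further probe set of Uqcrc2, with a lower signal, was at -0.071. At 8 weeks the smallest p was that of Uqcrh, at 0.12 (adjusted p = 0.791; 0.066 without centring), and at 24 weeks that of Uqcr11, at -0.12 (adjusted p = 0.500).

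Complex IV, cytochrome c oxidase, had 1 of 19 genes that fell at 16 weeks, and a median log2 difference of -0.11. The 19 include Cox6c-ps1, a pseudogene by its symbol with a mean signal of 5.85, and the median is its value. The median of its genes lay between -0.14 and -0.054 in the arrays at 16 weeks, below the control arrays (-0.037 to 0.046). Cox4i2 encodes an isoform of subunit 4 that is known from lung and from responses to low oxygen. It was at -0.11, -0.17, 0.082 and 0.20 in control and at -1.10, -0.26, -0.43 and -0.60 at 16 weeks. All 4 arrays were below control, and the log2 difference was -0.60 ± 0.16 (SE, n = 4), 0.661 times control, with adjusted p = 0.0272 by limma. It was at -0.32, -0.0052, -0.36 and -0.31 at 8 weeks (adjusted p = 0.788) and at -0.27, -0.57, -0.42 and -0.022 at 24 weeks (adjusted p = 0.335). Both groups overlapped with control. Its mean deposited signal was 7.04, the lowest of the 6 genes that fell.

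Other complex IV genes at 16 weeks spread widely. Cox7a1, the heart and muscle isoform of subunit 7a, was at -0.51 ± 0.23 (SE), and Ndufa4l2, a paralog of the subunit gene Ndufa4, at -0.43 ± 0.14 (SE; adjusted p = 0.072). Neither passed. Ndufa4l2 passed with array level as a block (-0.63), on the arrays of the higher level (-0.65), with cyclic loess, with the replicate number as a block, without centring and without replicate 3 at 16 weeks. Cox7a1 also varied among controls, from -0.50 to 0.26. Cox5a was at -0.39 on the probe set used (mean signal 9.41), and at -0.012 on a probe set with a mean signal of 13.4 that also names LOC100361008, so that the value of Cox5a depends on the probe set. The 8 complex IV genes with a mean signal above 13 lay between -0.22 (Cox8b) and 0.011 (Cox6a2), 7 of them below 0 and all 8 without centring. Among them Cox8b, with all 4 arrays below control, and Cox5b, at -0.12, were lowest, and Cox4i1, Cox6c and Cox7b were at -0.056, -0.021 and -0.0077. Cox6b2, an isoform known from testis, was highest at 0.17 (0.051 without centring), with a mean signal of 4.46. Cox8a, the widely used isoform of subunit 8, was at 0.0097, -0.030, 0.0038 and 0.017 in control, at -0.093, -0.20, -0.20 and -0.10 at 8 weeks, at -0.14, -0.12, -0.29 and -0.35 at 16 weeks and at -0.10, -0.13, -0.17 and -0.26 at 24 weeks. Every ACF array lay below every control array, at a small distance, and the log2 differences were -0.15, -0.22 and -0.16 (adjusted p = 0.695, 0.0838 and 0.310 by limma). At 24 weeks the smallest p of complex IV was that of Cox6b2, at 0.22 (adjusted p = 0.274; 0.0093 without centring).

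Pairs of isoforms were compared by the difference between their log2 values in each array, and 4 ACF arrays were set against 4 control arrays by exact permutation (2-sided; 12 tests over 4 pairs). The smallest p that this design can give is 0.0286. None passed after adjustment, with a lowest adjusted p of 0.23. Cox6a2, the heart and muscle isoform, relative to Cox6a1, the widely used isoform, was 0.14 higher than in control at 8 weeks, 0.29 at 16 weeks and 0.24 at 24 weeks. At 24 weeks the arrays were at 0.24, 0.23, 0.22 and 0.28, above the control arrays, which ranged from -0.21 to 0.16 (exact permutation p = 0.0286, adjusted p = 0.23). At 16 weeks the exact permutation p was 0.0571. Cox6a2 itself was at 0.0082 at 24 weeks (-0.20 without centring) and Cox6a1 at -0.23. Cox8b relative to Cox8a differed by 0.11, 0.0022 and 0.046 at 8, 16 and 24 weeks. Cox4i2 relative to Cox4i1 differed by -0.54 at 16 weeks (exact permutation p = 0.0571), and Ndufa4l2 relative to Ndufa4 by -0.37 (exact permutation p = 0.114). The genes of a pair were unequal in mean deposited signal. It was 13.8 for Cox6a2 and 11.7 for Cox6a1, and 13.8 for Cox8b and 11.9 for Cox8a. It was 7.04 for Cox4i2 and 13.8 for Cox4i1, and 7.48 for Ndufa4l2 and 13.3 for Ndufa4. The part of signal in these differences was not tested. Cox7a2 was only on a probe set with several symbols, and its pair with Cox7a1 was not run.

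**Figure D4:**
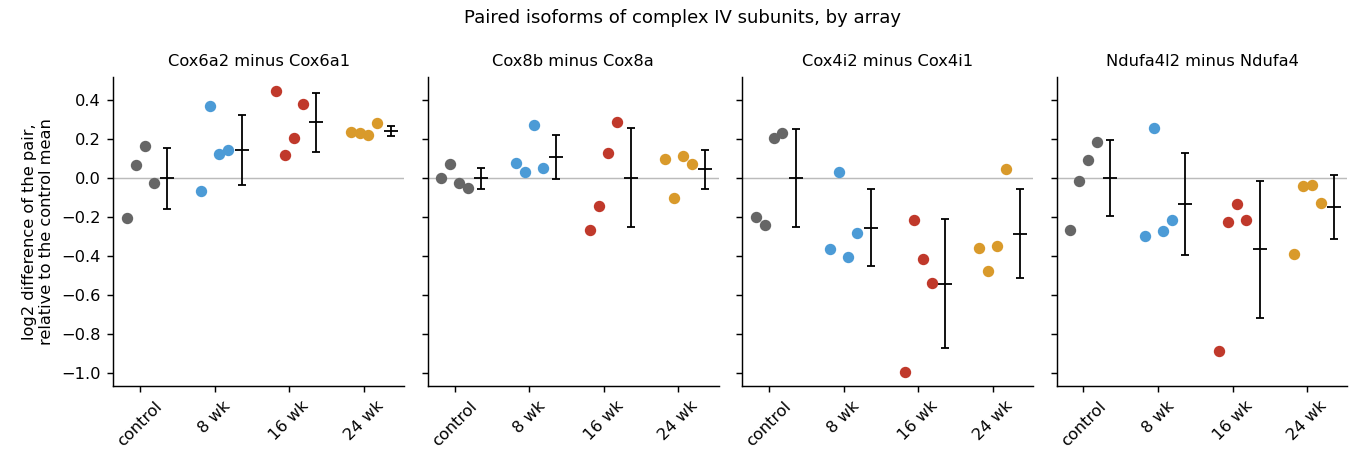
Difference between the log2 values of 2 paired isoforms in each array, relative to the control mean (points), with the mean and SD of 4 arrays. Cox6a2 minus Cox6a1 is at 0.22 to 0.28 in the 4 arrays at 24 weeks and spreads from -0.21 to 0.16 in control.

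Complex V, ATP synthase, had 0 of 16 genes called. Its median at 16 weeks was -0.077, the nearest to 0 of the 5 complexes, with 15 of 16 genes below 0. The median of its arrays was -0.093 ± 0.060 (SD, n = 4) at 16 weeks, against 0.0064 ± 0.049 in control. On centred arrays, the 95% interval at 16 weeks lay within a 1.5-fold change in either direction for all 16 genes, and within 1.2-fold for 10. Without centring the median of complex V at 16 weeks was -0.19. Its genes then lay between -0.36 (Atp5f1d) and -0.098 (Atp5if1). The catalytic subunit gene Atp5f1b was at -0.071 ± 0.082 (SE) and Atp5f1a at -0.083. Atp5f1d, the delta subunit of the F1 head, was lowest at -0.24 ± 0.091 (SE, n = 4; adjusted p = 0.106 by limma). Its arrays were at 0.073, -0.079, -0.0030 and 0.0092 in control and at -0.50, -0.16, -0.17 and -0.15 at 16 weeks, all below control. It also had the smallest p at 8 weeks, at -0.16 (adjusted p = 0.730). The 10 genes of the membrane part and the stalk were all below 0, from -0.21 (Atp5mf) to -0.041 (Atp5pb). Atp5if1, which encodes the inhibitor of the enzyme, was at 0.020 (-0.098 without centring). At 24 weeks the smallest p was that of Atp5pf, of the stalk, at -0.18 (adjusted p = 0.295).

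The 44 genes with a mean deposited signal of 12.66 or more had a median log2 difference of -0.084 at 16 weeks and 0 calls, and the 43 genes with less had a median of -0.20 and all 6 calls. Of the first kind were 13 of 16 genes of complex V, 7 of 8 of complex III, 14 of 40 of complex I, and 2 of its 6 core subunits. Among the other genes of the array, 91 were as bright. Of these 9 rose and 2 fell at 16 weeks, with a median of 0.038 and a median size, whatever the direction, of 0.13. The part of signal in the order of the complexes was not tested.

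**Figure D5:**
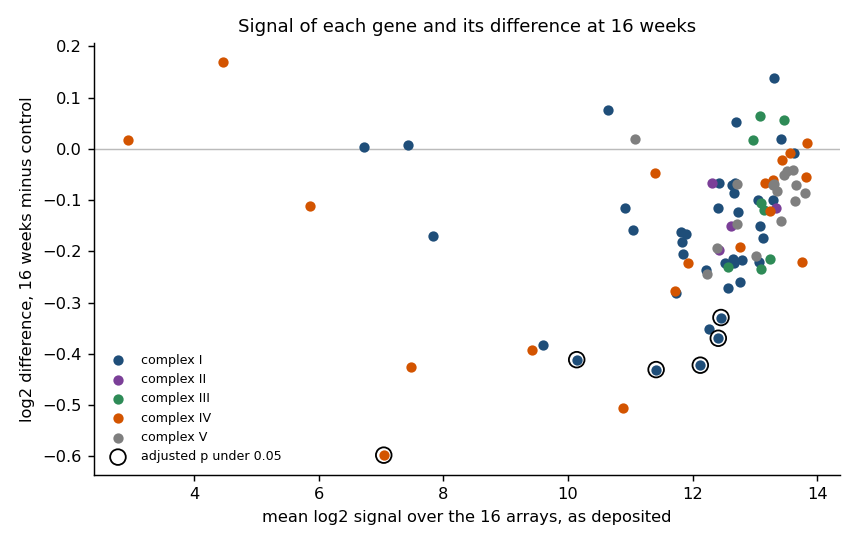
Mean deposited log2 signal of each of the 87 genes over the 16 arrays (x axis) and its log2 difference at 16 weeks (y axis), coloured by complex; circles mark an adjusted p under 0.05. The 6 circled genes have signals from 7.04 to 12.5, and the genes above 13 lie between -0.23 and 0.14.

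The genes that assemble and feed the chain were counted from lists that are not part of the 87. Assembly factors of complex IV had 3 of 17 genes that fell at 16 weeks, with a median of -0.17. Surf1, which assembles the oxidase and is mutated in Leigh syndrome, fell by 0.53 ± 0.086 (SE, n = 4; adjusted p = 0.00189 by limma). Cox15, which makes heme A, fell by 0.45 and Cox11, which inserts copper, by 0.38 (adjusted p = 0.0218 and 0.0328 by limma). The call of Surf1 held in all 16 omissions of an array, that of Cox15 in 12 and that of Cox11 in 11. On the arrays of the higher level alone, Cox11 did not pass (adjusted p = 0.0795 by limma). Ecsit, of 8 further complex I factors, fell by 0.66 (held in 13 of 16), and Uqcc1, of 6 complex III factors, fell by 0.52 (held in 7 of 16, and adjusted p = 0.0833 by limma with array level as a block). The 4 factors each of complexes II and V had no call at 16 weeks, with medians of -0.12 and -0.16.

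Ubiquinone synthesis and other electron entry had 3 of 17 genes that fell at 16 weeks and a median of -0.30. Coq8a, a kinase-like protein of ubiquinone synthesis, fell by 1.03 ± 0.18 on the log2 scale (SE, n = 4; adjusted p = 0.00241 by limma), and its call held in all 16 omissions. Coq7 fell by 0.50 (held in 12 of 16) and Etfb, which carries electrons from fatty acid oxidation, by 0.47 (held in 10 of 16). The TCA cycle had 3 of 12 genes that fell, all 12 below 0, and a median of -0.28. These were Dlst at -0.51 and Ogdh at -0.49, parts of the oxoglutarate dehydrogenase complex, and Suclg2 at -0.34. The call of Dlst held in all 16 omissions, that of Ogdh in 14 and that of Suclg2 in 9. With array level as a block, Suclg2 did not pass (adjusted p = 0.0710 by limma). Carriers and kinases that export ATP had 0 of 10 called and a median of -0.036.

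Nuclear regulators of respiratory genes and of mitochondrial DNA had 1 of 22 genes called at 16 weeks. Polg, the polymerase of mitochondrial DNA, rose by 0.30 (adjusted p = 0.0295 by limma; held in 10 of 16 omissions, with adjusted p = 0.0840 with array level as a block and 0.134 on the arrays of the higher level alone). Ppargc1a, a coactivator of these genes, was at -0.29 (adjusted p = 0.145), Esrra at -0.26 and Ppargc1b at -0.62 (adjusted p = 0.0848). None of the genes of these 9 lists passed at 8 or 24 weeks by limma. The background of 3.26% that fell and 5.83% that rose applies to each list, and with 4 to 22 measured genes a list nothing is read from a single call.

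Probe sets that name several genes were looked at separately. There were 9 of them for 8 names of these families, with a median log2 difference of -0.096 at 16 weeks and 8 of 9 below 0. The lowest of the 9, which names Atp5mc2 and Atp5mc2l1, fell by 0.38 (adjusted p = 0.0132 over all probe sets, by limma). The 2 that include Cycs were at 0.014 and -0.020. Atp5mc1 was at -0.19, Cox7a2 at -0.14, Ndufa10 at -0.25, Ndufs5 at -0.096 and Uqcrb at -0.030, each with a related gene on the same probe set. A further 10 probe sets of 9 of the 87 genes, with lower signals, had a median of -0.036, and 1 of them fell: the second probe set of Ndufv3 was at -0.43 (adjusted p = 0.0233 over all probe sets, by limma), where the probe set used was at -0.35 (adjusted p = 0.0751).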

How the data were processed

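Left ventricles of 16 rats were measured on 1 Affymetrix array each, 4 per group. Deposited values were log2 signals of probe sets, summarised by the authors with RMA (robust multiarray average) in Expression Console 1.2, according to the processing notes. The study's methods name another array model than the one the probe sets belong to. RMA background correction and quantile normalization were done by the authors, and the quantity of each array is relative; arrays have no read depth, and their number limits the precision. The table of 31099 probe sets held 20832 with 1 gene symbol, 436 with several and 9831 with none. For each of 14218 genes the probe set with the highest mean over the 16 arrays was used, and each array was centred on its median. All 4 groups were fitted with limma 3.58.1 (R 4.3.3), and p-values of each of 6 comparisons were adjusted by Benjamini-Hochberg over all genes, with a threshold of 0.05. The procedure was tested on simulated data. Isoform pairs were tested by exact permutation of arrays.

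Genes were named by a rule: for each complex and comparison with control, up to 3 of those past the threshold with the smallest adjusted p, and where none passed the gene with the smallest p; genes past it between ACF groups; the isoform pairs; and genes whose probe sets differ. The genes, the lists and the marker lists were chosen with earlier results of these data known. Alternatives were no centring, cyclic loess, array weights, another variance prior, the methods' t-test and threshold (fold above 1.5 and unadjusted p under 0.05), the 8 arrays compared, the upper part of genes by mean, all probe sets of a gene, the replicate number or array level as a block, the arrays of the higher level, and leaving out each array. For the lists, the omissions and the array levels were chosen after seeing the data, as was the methods' t-test at the methods' own threshold. Promoters were read from RefSeq (GRCr8). Probe sets with several symbols, the unnamed probe sets and 57 control probe sets were left out of the fit over genes.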

Additional observations from a re-analysis of the deposited data

Results flagged for a closer look

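In 8 of 116 groups of 4 values, 1 array stood far from the other 3, by Dixon's test of the gap to the nearest array as a share of the whole range. Chance gives this in about 1 of 20 groups. All are log2 differences from the control mean. Replicate 1 at 16 weeks was at -0.50 for Atp5f1d. Replicate 2 at 16 weeks was at -0.15 for Ndufa4. Replicate 2 at 8 weeks was at -0.0053 for Cox4i2 and at -0.27 for Atp5pf. Replicate 4 at 8 weeks was at 0.17 for Sdha. Replicate 1 at 24 weeks was at 0.088 for Cox4i1. In control, replicate 4 was at -0.062 for Cox6a2 and replicate 1 at -0.22 for Ndufa4l2. None of these 8 genes but Cox4i2 passed the test in a comparison with control.

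Outside the 87 genes, a probe set that names both Atp5mc2 and Atp5mc2l1, for the ring of ATP synthase, was at -0.38 at 16 weeks, and passed the test over all probe sets.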

How the results depend on the processing

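At 16 weeks, the count of 6 genes was 10 with array weights and 13 on the arrays of the higher level, which keeps 2 arrays at 16 weeks. It was 14 with cyclic loess and 18 without centring, and all 6 were among them each time. Of all genes 12.1%, 13%, 10.9% and 9.60% passed in these settings, against 9.09% in the fit reported. The count was 1 with only the 8 arrays compared (7.64% of all genes) and 1 by the methods' t-test after adjustment (1.55%). At a fold above 1.5 with an unadjusted p under 0.05 it was 1 (6.06% of all genes). The methods' t-test at that threshold also gave 1, Cox4i2. With array level as a block the count was 6, of which 5 were shared, and 11.2% of all genes passed. Leaving out 1 array gave 0 to 8, with 4.54% to 11% of all genes. At 24 weeks the count was 26 without centring, with 11.8% of all genes. On centred arrays the count at 24 weeks was 0 with each array left out, with 0.0352% to 3.92% of all genes. Without centring, the median of all genes moved with the array medians, by -0.12 at 16 weeks and -0.21 at 24 weeks against control, and the median of the 87 genes was -0.24 and -0.29. On centred arrays with each array left out, the median of the 87 genes was -0.15 to -0.11 at 16 weeks. It was -0.12 to -0.041 at 24 weeks and -0.046 to 0.0073 at 8 weeks. Same-numbered arrays had correlations of -0.32 to 0.24, which cannot show whether the replicate number pairs the rats, as a weak pairing would look the same. With the replicate number as a block, 5 genes fell at 16 weeks, of which 4 were shared, and 9.06% of all genes passed.

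The sign turned in the following differences, none of which passed the test. On the arrays of the higher level, Cox8b minus Cox8a at 16 weeks was -0.21, with -0.094 to 0.091 over the omissions. At 8 weeks, Cox4i1 was -0.0084 with array weights, -0.026 with cyclic loess and -0.050 without centring (omissions -0.035 to 0.034). Cox6a2 at 16 weeks was -0.0014 with array weights, -0.016 with cyclic loess and -0.11 without centring (omissions -0.010 to 0.024), and at 24 weeks -0.032 with cyclic loess and -0.20 without centring (omissions -0.012 to 0.023). Cox7a1 with the array level as a block was 0.059 at 24 weeks and 0.045 at 8 weeks, where it was 0.077 with array weights and 0.22 on the arrays of the higher level (omissions -0.26 to 0.22). The value at 24 weeks with this block rests on the level difference within the 8-week and 16-week groups, as control and 24 weeks share no level. At 8 weeks, on the arrays of the higher level, Cox8b was 0.0020 (omissions -0.077 to 0.0020) and Ndufa4 0.029 (omissions -0.047 to 0.029), and Ndufa4 was 6.0e-05 with array weights. The cause was not tested.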
